A study of Mus with 8 samples.

Results

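The matrix proteases and their inhibitors are described here as 10 of the 17640 genes in the deposited count table, taken by their Ensembl gene IDs over all 8 libraries. The members are the matrix metalloproteinases Mmp8, Mmp9, Mmp12, Mmp13, Mmp14 and Mmp19, the cysteine protease gene Ctsk (cathepsin K), and the inhibitor genes Timp1, Timp2 and Timp3. All 10 passed the filter on low counts. The cells were mouse monocytes from bone marrow, labelled C57BL/6, isolated by negative selection and grown in stiff artificial fibrotic matrix to day 3. The medium held PGE2 and GM-CSF, each at 100 ng/mL, and IL4 at 200 ng/mL, and gels were digested with collagenase and alginate lyase before RNA was taken. The groups were Jak2 V617F Vav-iCre cells in elastic gel, Jak2 V617F Vav-iCre cells in viscous gel, Vav-iCre control cells in elastic gel and Vav-iCre control cells in viscous gel, with 2 libraries in each. Jak2 V617F is an activating mutation of the kinase JAK2 found in myeloproliferative neoplasms, and the design states that the mutant allele is an endogenous knock-in. Both genotypes carry Vav-iCre, a recombinase driven by the Vav promoter, which is active in blood-forming cells. The titles mark elastic gels as NbTz and viscous gels as VLVG, so a gel difference covers anything in which these gels differ.

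Matrix metalloproteinases are zinc enzymes made as inactive precursors that cut collagens, elastin and other matrix proteins once their propeptide is removed. Tissue inhibitors of metalloproteinases (TIMPs) bind the active site, and single TIMPs also bind particular precursors. The amount of inhibitor is thus among the factors that limit free protease activity. Macrophages are a main source of these enzymes in inflamed and fibrotic tissue, and mononuclear phagocytes use them to remodel and cross matrix. RNA levels do not give enzyme activity, which depends on precursor cleavage and inhibition.

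Each title ends in a number that 1 elastic and 1 viscous library of a genotype share. These pairs are called J1 and J2 for Jak2 V617F cells and C1 and C2 for control cells. What a number stands for is not stated, and nothing in the labels links J1 with C1 or J2 with C2. Libraries held 30632355 to 38408851 counts. The C1 libraries stood apart from the other 6: on the first principal component of log2 CPM (41.5% of the variance) they scored 69.4 in elastic and 78.2 in viscous gel, against −37.1 to −10.9 elsewhere. Both C1 libraries lay above the other 6 for 16.1% of the 14785 genes tested and below them for 14.8%. No defining marker of monocytes or of any other cell type was checked, because the Ensembl IDs other than those of the members carry no names here. In bulk RNA, fewer cells of a type and less RNA per cell cannot be told apart.

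None of the 10 members passed the test in any comparison, so the differences below are values and not calls. The test was edgeR's quasi-likelihood test with Benjamini-Hochberg adjustment over all genes. For elastic against viscous gel averaged over genotypes it called 0 of 14785 genes (0%), with 928 (6.28%) at an unadjusted p under 0.05. limma-voom also called 0, with 925 (6.26%) at an unadjusted p under 0.05. DESeq2 called 134 genes (0.906%), 0 of them members. Of the 10 members, 3 had an unadjusted edgeR p under 0.05 in this comparison: 1 lower in elastic gel (Timp3), as for 3.38% of genes, and 2 higher (Mmp9 and Mmp19), as for 2.9%. The median log2 fold change of the members was 0.28, beside −0.0043 over all genes tested, and the median absolute log2 fold change was 0.39 beside 0.14. The members also varied more than most genes over the 8 libraries, with an SD of log2 CPM at percentiles 59.8 to 94.1. Their median absolute value was also larger between genotypes on summed counts (0.57 beside 0.19), but nearly equal for the difference of gel effects (0.22 beside 0.21). Whether the gel accounts for the larger values was not tested.

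Within Jak2 V617F cells the gel comparison had 0 calls by edgeR (0%), with 455 genes (3.08%) and 1 member, Timp3, at an unadjusted p under 0.05. limma-voom called 0, with 457 (3.09%), and DESeq2 called 35 (0.237%), 0 of them members. Within control cells edgeR called 0 (0%), with 717 genes (4.85%) and 2 members, Mmp19 and Timp3, at an unadjusted p under 0.05. limma-voom called 0, with 709 (4.8%), and DESeq2 called 35 (0.237%), again 0 of them members.

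Levels are CPM, the counts per 1e+06 of the TMM-scaled library total. CPM is not per gene length, so levels are compared between libraries for 1 gene and not between genes. Together the 10 genes held between 0.823% and 1.73% of the counts of a library. Mmp12 alone held 0.362% to 0.943% over the 8 libraries.

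**Figure D1:**
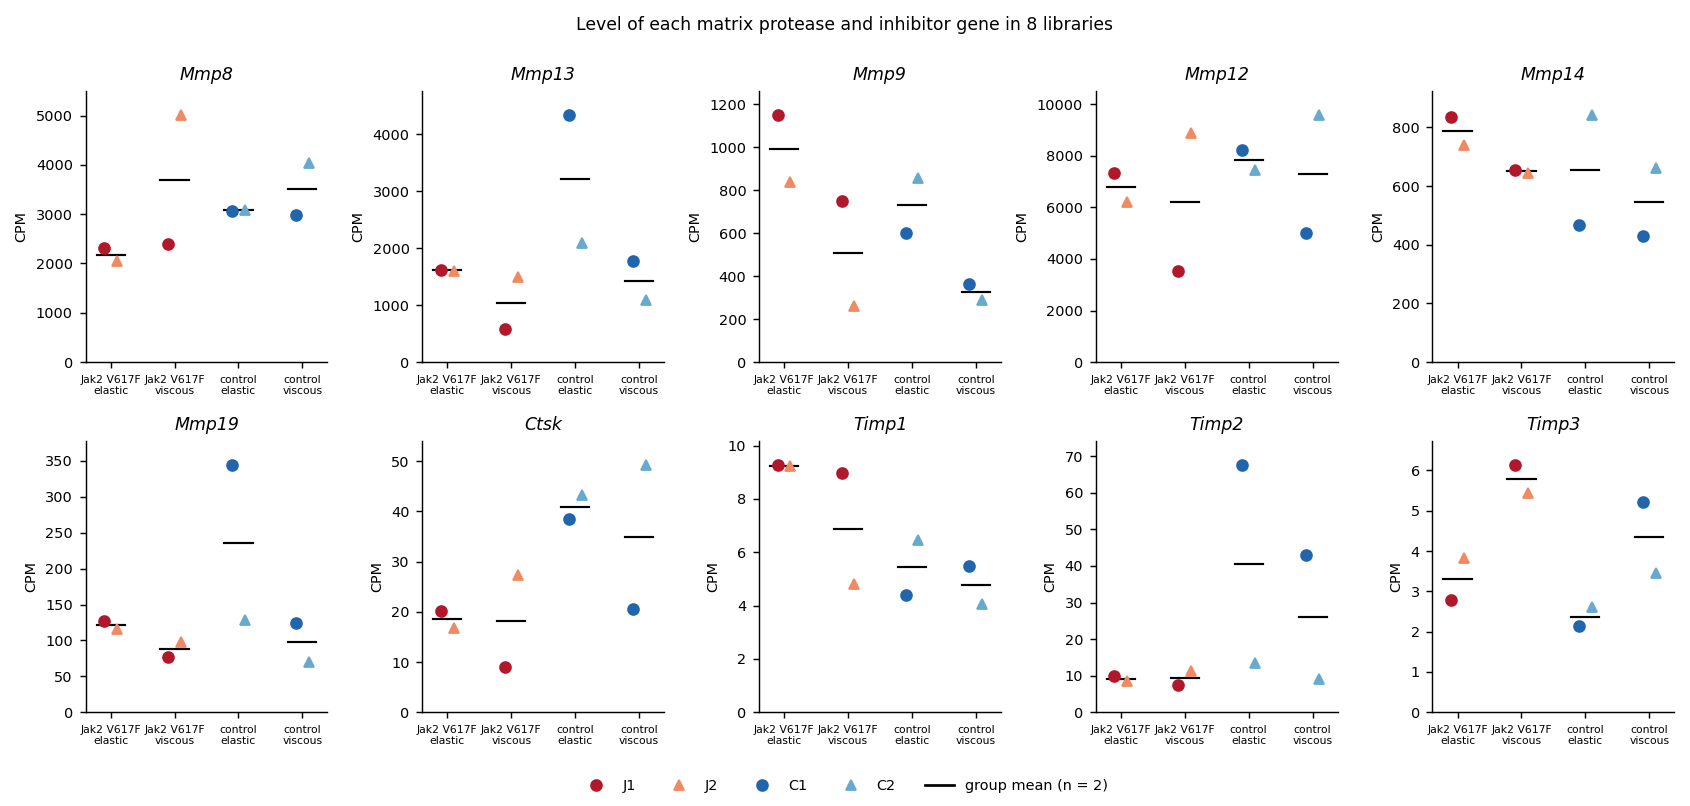
Level of each gene (vertical axes, CPM from 0) in the 4 groups, with 1 point per library and a line at the mean of 2. Mmp9 and Mmp13 have higher means in elastic gel in both genotypes and Timp3 lower ones, while Timp2 is high only in the C1 libraries (67.5 and 43.1 CPM).

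Mmp8 and Mmp13 encode the collagenases, which cut the triple helix of fibrillar collagen. Mmp13 is the main interstitial collagenase of rodents, and Mmp8 is known as the neutrophil collagenase. The genes (Mmp8, ENSMUSG00000005800; Mmp13, ENSMUSG00000050578) lie on chromosome 9 together with Mmp12, at 7272514 to 7283333 for Mmp13, 7344397 to 7360461 for Mmp12 and 7558429 to 7568486 for Mmp8 (RefSeq, GRCm38.p6). All 3 fall within 296 kb, with Mmp1b, Mmp3, Mmp1a and Mmp10 between Mmp12 and Mmp8. The span of Mmp8 overlaps that of the noncoding RNA Gm31751, so its counts are uncertain to that extent.

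Mmp13 was higher in elastic than in viscous gel for all 4 title numbers. In elastic gel it stood at 1617 and 1599 CPM in Jak2 V617F cells (J1 and J2) and at 4328 and 2095 CPM in control cells (C1 and C2). In viscous gel it stood at 579.7 and 1489 CPM in Jak2 V617F cells (J1 and J2) and at 1765 and 1092 CPM in control cells (C1 and C2). The lowest elastic value, in J2, was below the highest viscous value, in C1, so the gels overlapped. Within a number, elastic over viscous was 2.79-fold in J1, 2.45-fold in C1 and 1.92-fold in C2, but 1.07-fold in J2. Averaged over genotypes the log2 fold change was 0.90 (SE 0.38, 95% interval −0.014 to 1.82), with an edgeR adjusted p of 0.795. It was 0.64 (SE 0.54) in Jak2 V617F cells and 1.17 (SE 0.54) in control cells, with adjusted p = 1.00 and 0.985 by edgeR. Without the viscous J2 library the estimate in Jak2 V617F cells was 1.47, and without the viscous J1 library it was 0.11. Without elastic C1 the averaged value was 0.60 and the control value 0.56.

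Mmp8 stood at 2313 and 2041 CPM in Jak2 V617F cells in elastic gel (J1 and J2), against 2390 and 5003 CPM in viscous gel. Control cells gave 3065 and 3087 CPM in elastic gel (C1 and C2), against 2981 and 4032 CPM in viscous gel. The 2 highest values thus came from viscous J2 and viscous C2, and the J1 and C1 numbers showed almost the same level in both gels. Elastic over viscous was 0.968 in J1, 0.408 in J2, 1.03 in C1 and 0.766 in C2. Over both genotypes the log2 fold change was −0.48 (SE 0.27, edgeR adjusted p = 0.902). In Jak2 V617F cells it was −0.76 (SE 0.38), and in control cells −0.19 (SE 0.38), with adjusted p = 1.00 and 0.988 by edgeR. Without viscous J2 the averaged value was −0.16 and the one in Jak2 V617F cells −0.14; without viscous C2 the control value was 0.051.

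Mmp9 encodes gelatinase B, which cuts denatured collagen and basement membrane collagen, and which TIMP-1 binds as a precursor. The gene (ENSMUSG00000017737) lies on chromosome 2 at 164940326 to 164955850. Mmp9 stood at 1149 and 837 CPM in Jak2 V617F cells in elastic gel (J1 and J2), against 752.3 and 260.8 CPM in viscous gel. In control cells the levels were 603.2 and 856.3 CPM in elastic gel (C1 and C2), against 365.3 and 290.4 CPM in viscous gel. All 4 numbers were higher in elastic gel, and only viscous J1 reached into the elastic range. The ratio of elastic to viscous was 1.53 in J1, 3.21 in J2, 1.65 in C1 and 2.95 in C2. The averaged log2 fold change of 1.06 (SE 0.35, 95% interval 0.23 to 1.89), 2.09-fold, was the largest of the 10 members in this comparison, with unadjusted p = 0.0196 and adjusted p = 0.715 by edgeR. Estimates were 0.97 (SE 0.49) in Jak2 V617F and 1.15 (SE 0.49) in control cells, with adjusted p = 1.00 and 0.985 by edgeR. Leaving out viscous J1 gave 1.93 in Jak2 V617F cells, and leaving out viscous J2 gave 0.40.

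Mmp12 (ENSMUSG00000049723) encodes macrophage elastase, which degrades elastin. It stood at 7344 and 6199 CPM in Jak2 V617F cells in elastic gel (J1 and J2), against 3514 and 8899 CPM in viscous gel. Control cells held 8218 and 7439 CPM in elastic gel (C1 and C2), against 5013 and 9566 CPM in viscous gel. The 4 elastic values lay between the extremes of the viscous ones. Elastic was the higher gel in J1 (2.09-fold) and C1 (1.64-fold), and the lower gel in J2 (0.697) and C2 (0.778). Over both genotypes the log2 fold change was 0.11 (SE 0.37, edgeR adjusted p = 0.988), and it was −0.14 without viscous J1 and 0.53 without viscous J2.

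Ctsk (ENSMUSG00000028111) lies on chromosome 3 at 95499210 to 95509387 and encodes the lysosomal cysteine protease with which osteoclasts degrade bone collagen. Its gel pattern was like that of Mmp12. Ctsk stood at 20.2 and 16.9 CPM in Jak2 V617F cells in elastic gel (J1 and J2), against 8.99 and 27.4 CPM in viscous gel. Control cells had 38.4 and 43.3 CPM in elastic gel (C1 and C2), against 20.6 and 49.2 CPM in viscous gel. J1 and C1 were 2.25-fold and 1.86-fold higher in elastic gel, whereas J2 and C2 were at 0.616 and 0.88 of their viscous level. Averaged over genotypes the log2 fold change was 0.13 (SE 0.40, edgeR adjusted p = 0.987), with −0.17 when viscous J1 was left out and 0.64 when viscous J2 was.

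Mmp14 encodes a membrane-anchored metalloproteinase that cuts collagen at the cell surface and activates the precursors of other metalloproteinases. The gene (ENSMUSG00000000957) lies on chromosome 14 at 54431598 to 54442456. Its level varied least among the 10, by 1.96-fold from the lowest to the highest library. Mmp14 stood at 835.5 and 738.5 CPM in Jak2 V617F cells in elastic gel (J1 and J2), against 654.8 and 645.1 CPM in viscous gel. In control cells it stood at 465.7 and 841 CPM in elastic gel (C1 and C2), against 428.6 and 661.2 CPM in viscous gel. Both C1 libraries were below the other 6, as they were for 14.8% of all genes tested. Each number was higher in elastic gel, by 1.09-fold in C1 to 1.28-fold in J1. The averaged log2 fold change was 0.27 (SE 0.23, edgeR adjusted p = 0.938), and without elastic C2 it was 0.026.

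Mmp19 (ENSMUSG00000025355) lies on chromosome 10 at 128790910 to 128800827 and encodes a metalloproteinase that cuts basement membrane proteins. Its RefSeq span overlaps that of Tmem198b, and no source used here says whether counting used strand; the same holds for the overlaps named below. Mmp19 stood at 127.4 and 115.6 CPM in Jak2 V617F cells in elastic gel (J1 and J2), against 76.5 and 98.3 CPM in viscous gel. In control cells it stood at 343.8 and 129.1 CPM in elastic gel (C1 and C2), against 124.8 and 69.7 CPM in viscous gel. Elastic C1 was far above all other libraries, and viscous C1 lay inside the elastic range of the other numbers. Elastic over viscous was 1.66 in J1, 1.18 in J2, 2.75 in C1 and 1.85 in C2. The averaged log2 fold change was 0.88 (SE 0.34, 95% interval 0.073 to 1.68), with unadjusted p = 0.0367 and adjusted p = 0.763 by edgeR. It was 0.48 (SE 0.47) in Jak2 V617F and 1.28 (SE 0.48) in control cells, with adjusted p = 1.00 and 0.985 by edgeR. Without elastic C1 the averaged value was 0.44 and the control value 0.41.

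The inhibitor genes did not move as 1 group. Timp3 (ENSMUSG00000020044) encodes an inhibitor that stays bound to the matrix and also blocks ADAM and ADAMTS proteases. It lies on chromosome 10 at 86300412 to 86349505, and its span overlaps that of Syn3. Timp3 stood at 2.80 and 3.82 CPM in Jak2 V617F cells in elastic gel (J1 and J2), against 6.13 and 5.45 CPM in viscous gel. Control cells had 2.13 and 2.62 CPM in elastic gel (C1 and C2), against 5.23 and 3.45 CPM in viscous gel. Timp3 was lower in elastic gel in each of the 4 numbers, and the gels overlapped only because elastic J2 was above viscous C2. These levels rest on 66 to 242 counts per library.

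The averaged log2 fold change of Timp3 was −0.84 (SE 0.22, 95% interval −1.36 to −0.32), or 1.79-fold lower in elastic gel. Its unadjusted p of 0.0072 was the smallest of the members and its adjusted p was 0.558 by edgeR. The estimate was −0.81 (SE 0.31) in Jak2 V617F cells and −0.87 (SE 0.31) in control cells, with adjusted p = 1.00 and 0.985 by edgeR. Without viscous C1 the control value was −0.54, and with each library left out in turn the averaged value stayed between −0.97 and −0.67. With both C1 libraries left out the averaged value was −0.60 and the control value −0.40.

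Timp1 (ENSMUSG00000001131) encodes the inhibitor that binds the MMP-9 precursor. It lies on the X chromosome at 20870166 to 20874737, within a region that Syn1 overlaps in RefSeq. Timp1 stood at 9.26 and 9.22 CPM in Jak2 V617F cells in elastic gel (J1 and J2), against 8.99 and 4.80 CPM in viscous gel. Control cells had 4.39 and 6.48 CPM in elastic gel (C1 and C2), against 5.50 and 4.04 CPM in viscous gel. J2 and C2 were 1.92-fold and 1.60-fold higher in elastic gel, while J1 and C1 stood at 1.03 and 0.799 of their viscous level. Over both genotypes the log2 fold change was 0.30 (SE 0.25, edgeR adjusted p = 0.934), and it was 0.57 without viscous J1 and 0.12 without viscous J2.

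Timp2 (ENSMUSG00000017466) encodes an inhibitor that binds MMP-14 at the cell surface and takes part in activation of the MMP-2 precursor. It lies on chromosome 11 at 118301061 to 118355411, and its span overlaps that of Cep295nl. Timp2 stood at 9.93 and 8.47 CPM in Jak2 V617F cells in elastic gel (J1 and J2), against 7.44 and 11.4 CPM in viscous gel. Control cells had 67.5 and 13.4 CPM in elastic gel (C1 and C2), against 43.1 and 9.05 CPM in viscous gel. Within the control groups C1 was thus 5.03-fold above C2 in elastic gel and 4.76-fold above it in viscous gel. Of the 10 members Timp2 alone had both C1 libraries above the other 6, a pattern that 16.1% of all genes tested also showed. For the gel over both genotypes the log2 fold change was 0.30 (SE 0.63, edgeR adjusted p = 0.983), with −0.49 when elastic C1 was left out and 1.06 when viscous C1 was.

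**Figure D2:**
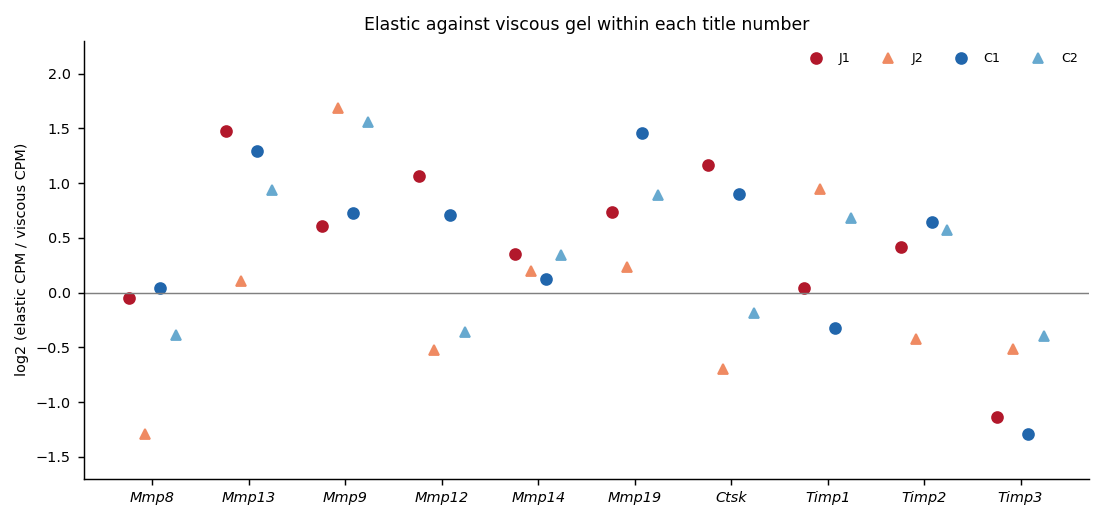
Log2 ratio of elastic to viscous CPM within each title number (vertical axis), with 1 point for each of J1, J2, C1 and C2 per gene. Mmp13, Mmp9, Mmp14 and Mmp19 are above 0 in all 4 numbers and Timp3 is below 0 in all 4, while Mmp12 and Ctsk are above 0 in J1 and C1 and below 0 in J2 and C2.

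Set side by side, 4 of the 10 members (Mmp13, Mmp9, Mmp14 and Mmp19) were higher in elastic gel in every title number, as were 10.7% of all genes tested. Timp3 alone was lower in every number, as were 10.8% of all genes tested. For 0 of the 10 did all 4 elastic libraries lie above all 4 viscous ones (2.07% of genes tested), and for 0 of the 10 below them (1.66%).

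The ratio of the gels also varied between title numbers. Setting J1 beside C1 here follows only the names given above, as no label links them. The grouping of J1 with C2 was not counted. It was larger in J1 and C1 than in J2 and C2 for 4 members (Mmp8, Mmp13, Mmp12 and Ctsk), as for 23.7% of all genes tested. It was smaller in J1 and C1 for 3 members (Mmp9, Timp1 and Timp3), as for 21.7% of all genes tested. In Jak2 V617F cells, J1 and J2 lay further apart in viscous than in elastic gel for 8 of the 10 members, and further apart in elastic gel for Timp3 (1.37-fold, against 1.12-fold in viscous gel) and Mmp14 (1.13-fold, against 1.02-fold in viscous gel). The widest gaps came in viscous gel, where J1 and J2 differed by 2.53-fold for Mmp12, 3.05-fold for Ctsk, 2.57-fold for Mmp13, 2.88-fold for Mmp9 and 2.09-fold for Mmp8. In elastic gel the same pair differed by 1.18-fold, 1.20-fold, 1.01-fold, 1.37-fold and 1.13-fold for these genes. A chi-square summed over genes, the members included, was also larger for the 2 Jak2 V617F libraries in viscous gel. Over its degrees of freedom it was 107 in viscous and 19.1 in elastic gel. Abundant genes weigh most in this sum. The share of all genes with the wider gap in viscous gel was not computed. Whether this spread differs between the gels was not tested.

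Whether the mutation alters the response to the gel was tested as the difference of the 2 gel effects, with control cells subtracted. edgeR called 0 of 14785 genes (0%), with 254 (1.72%) at an unadjusted p under 0.05, and limma-voom called 0, with 259 (1.75%). DESeq2 called 2 genes (0.0135%), 0 of them members. Estimates for the members ran from −0.81 to 0.23, and all 10 of the 95% intervals included 0 in this fit. For Mmp19 the difference was −0.81 (SE 0.67, 95% interval −2.41 to 0.79), and it was 0.063 without elastic C1 and −1.35 without elastic C2 (edgeR unadjusted p = 0.025, adjusted p = 0.859). With the title number as a block it was −0.69 (95% interval −1.37 to −0.0086, edgeR unadjusted p = 0.048, adjusted p = 1.00). For Mmp9 it was −0.18 (SE 0.69, 95% interval −1.83 to 1.46), and without viscous J1 it was 0.77. These intervals also include differences of more than 1 log2 unit, so the design does not show that the genotypes responded alike.

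Genotypes were compared on counts summed per title number, 2 Jak2 V617F sums against 2 control sums. By edgeR 0 of 15239 genes were called (0%), with 795 (5.22%) at an unadjusted p under 0.05. limma-voom called 0, with 768 (5.04%), and DESeq2 called 106 (0.696%), 0 of them members. Ctsk and Timp1 were the members with an unadjusted edgeR p under 0.05, Ctsk lower (2.75% of genes) and Timp1 higher (2.47% of genes) in Jak2 V617F cells. Of the 10, 0 had all 4 Jak2 V617F libraries above all 4 control libraries (3.5% of genes tested) and 0 had them below (3.39%). With C2 left out, so that C1 alone stood for control cells, edgeR called 2664 genes (16.6%) and 4 members: Timp2, Mmp19, Mmp14 and Mmp13. The median log2 fold change of the 10 was −0.17, beside −0.0049 over all genes, and the median absolute log2 fold change was 0.57 beside 0.19.

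Between genotypes within a gel, 0 members had an unadjusted edgeR p under 0.05. In elastic gel edgeR called 0 genes (0%), with 654 (4.42%) at an unadjusted p under 0.05, limma-voom called 0, with 561 (3.79%), and DESeq2 called 44 (0.298%), 0 of them members. In viscous gel edgeR called 0 (0%), with 1081 (7.31%), limma-voom called 0, with 1125 (7.61%), and DESeq2 called 61 (0.413%), 0 of them members. In elastic gel 8 of the 10 members did not overlap between genotypes. Both Jak2 V617F libraries were above both control libraries for 2 of them (Timp1 and Timp3), as for 17.2% of all genes tested. They were below for 6 (Mmp8, Mmp13, Mmp12, Mmp19, Ctsk and Timp2), as for 18.9% of all genes tested. In viscous gel 1 member, Timp3, was above (18.6% of genes) and 0 were below (19%).

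Summed over gels, Ctsk stood at 14.3 and 22.5 CPM in Jak2 V617F cells (J1 and J2), against 28.6 and 46.3 CPM in control cells (C1 and C2). Both Jak2 V617F sums were below both control sums, as for 19% of all genes. The log2 fold change was −1.03 (SE 0.34, 95% interval −1.95 to −0.10), or 2.04-fold lower, with unadjusted p = 0.0361 and adjusted p = 0.792 by edgeR. Within gels it was −1.14 (SE 0.57) in elastic and −0.94 (SE 0.57) in viscous gel, with adjusted p = 0.937 and 0.689 by edgeR. The value in viscous gel was −0.18 without C2, and −1.95 without J2; the summed value was −0.63 without C2.

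Timp1 stood at 9.17 and 6.89 CPM in the Jak2 V617F sums (J1 and J2), against 4.96 and 5.27 CPM in the control sums (C1 and C2). The Jak2 V617F sums were both higher, as for 20.6% of all genes. The log2 fold change was 0.65 (SE 0.22, 95% interval 0.060 to 1.24), with unadjusted p = 0.0373 and adjusted p = 0.792 by edgeR. Elastic gel gave 0.77 (SE 0.36) and viscous gel 0.53 (SE 0.36), with adjusted p = 0.937 and 0.712 by edgeR. In viscous gel J2 was below C1. Without J1 the summed value was 0.43 and the value in viscous gel 0.012.

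Timp2 had the largest genotype estimate of the members and the widest interval. Its summed levels were 8.65 and 10.0 CPM in Jak2 V617F cells (J1 and J2), against 53.9 and 11.2 CPM in control cells (C1 and C2). The log2 fold change was −1.80 (SE 0.77, 95% interval −3.88 to 0.27, edgeR adjusted p = 0.792), and without C1 it was −0.27. It was −2.14 (SE 0.92) in elastic and −1.47 (SE 0.90) in viscous gel, with adjusted p = 0.937 and 0.691 by edgeR. Without C1 in the gel concerned these values were −0.55 in elastic and 0.055 in viscous gel.

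Mmp19 and Mmp13 likewise had their highest summed level in C1. Mmp19 stood at 100.8 and 106.6 CPM in Jak2 V617F sums (J1 and J2), against 223.5 and 99.5 CPM in control sums (C1 and C2). Its log2 fold change was −0.64 (SE 0.41, edgeR adjusted p = 0.795), and 0.060 without C1. Mmp13 stood at 1068 and 1544 CPM in Jak2 V617F sums (J1 and J2), against 2918 and 1594 CPM in control sums, with a log2 fold change of −0.79 (SE 0.40, edgeR adjusted p = 0.792), and −0.29 without C1.

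The other 5 members gave smaller genotype estimates. Timp3 stood at 4.60 and 4.69 CPM in Jak2 V617F sums (J1 and J2), against 3.79 and 3.04 CPM in control sums (C1 and C2), with a log2 fold change of 0.44 (SE 0.22). Mmp9 stood at 942.1 and 532.7 CPM in Jak2 V617F sums (J1 and J2), against 471 and 573.8 CPM in control sums (C1 and C2), a log2 fold change of 0.50 (SE 0.33). J1 alone was above both control sums. Mmp14 stood at 743.1 and 690.1 CPM in Jak2 V617F sums, against 442.7 and 751.8 CPM in control sums, a log2 fold change of 0.26 (SE 0.30). Mmp12 stood at 5326 and 7641 CPM in Jak2 V617F sums, against 6436 and 8511 CPM in control sums, a log2 fold change of −0.21 (SE 0.34). Both overlapped between genotypes. Mmp8 stood at 2368 and 3615 CPM in Jak2 V617F sums, against 2999 and 3563 CPM in control sums, a log2 fold change of −0.13 (SE 0.31). The edgeR adjusted p of these 5 ran from 0.792 (Timp3) to 0.929 (Mmp8). For Mmp9 the estimate was 0.027 without J1, and for Mmp14 it was −0.069 without C1.

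**Figure D3:**
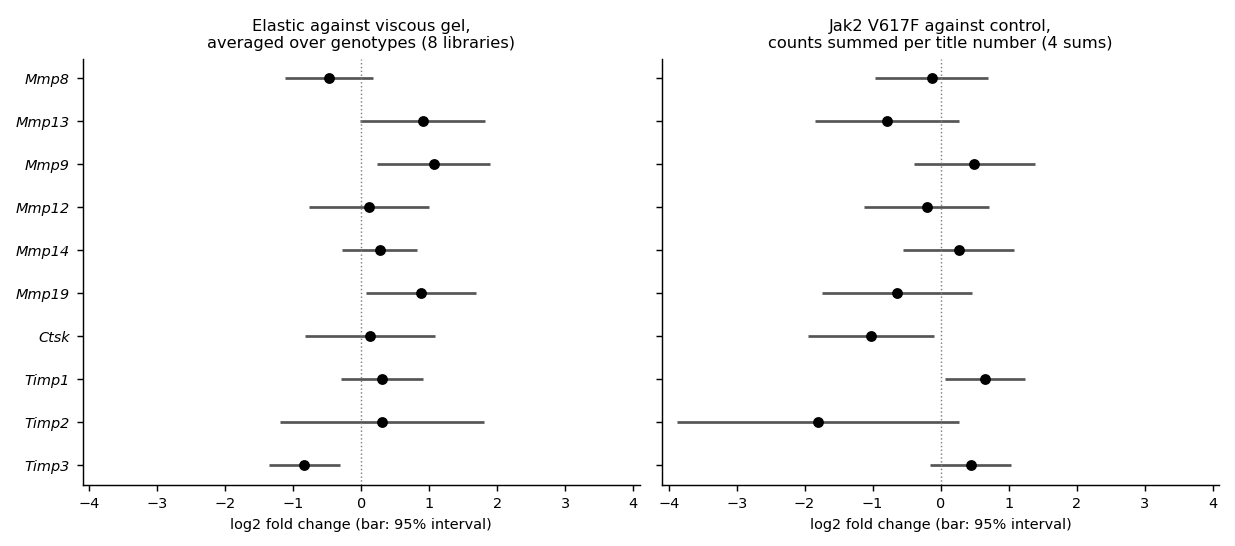
Log2 fold change with its 95% interval (horizontal axes) for the 10 genes, at left for elastic against viscous gel over both genotypes and at right for Jak2 V617F against control on summed counts. At left the intervals of Mmp9 and Mmp19 lie above 0 and that of Timp3 below 0. At right the interval of Timp1 lies above 0 and that of Ctsk below 0, and Timp2 has the widest interval, −3.88 to 0.27. The intervals are not adjusted for the number of genes tested, and no member passed the adjusted test.

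Proteases were set against the inhibitor that is known to bind them, as a ratio of counts within a library. The ratio cancels library size but not gene length, so only its change between libraries is read. For Mmp9 over Timp1 it was 124 (J1) and 90.7 (J2) in Jak2 V617F cells in elastic gel, against 83.7 (J1) and 54.3 (J2) in viscous gel. In control cells it was 137 (C1) and 132 (C2) in elastic gel, against 66.4 (C1) and 71.8 (C2) in viscous gel. All 4 elastic ratios were above all 4 viscous ratios, although neither gene alone separated the gels. The margin was narrow, from 83.7 in viscous J1 to 90.7 in elastic J2. Timp1 rested on only 130 to 355 counts per library. Such separation was seen in 5 of the 21 protease to inhibitor pairs among the members. The others were Mmp13, Mmp9, Mmp14 and Mmp19 over Timp3. Each of those proteases was higher in elastic gel in every title number and Timp3 was lower in every one. Their ratios to Timp3 thus draw again on values given above. For Mmp14 over Timp3 the lowest elastic ratio was 193 and the highest viscous ratio 191. Timp3 itself had only 66 to 242 counts per library. The share of all genes whose ratio to Timp3 separates the gels was not computed, so the 5 pairs are not read as a trait of the members. With each other gene tested put in place of Timp1, the ratio of Mmp9 to that gene separated the gels in this direction for 14.3% of genes. With each other gene put in place of Mmp9, the ratio of that gene to Timp1 did so for 0.325%. The pair was examined with the gene levels known, and Mmp9 had the largest averaged gel estimate of the members. No test is given, and these shares do not measure how rare such a pair is.

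For Mmp14 over Timp2 the ratio was 84.1 (J1) and 87.2 (J2) in Jak2 V617F cells in elastic gel, against 88 (J1) and 56.8 (J2) in viscous gel. Control cells gave 6.90 (C1) and 62.7 (C2) in elastic gel, against 9.94 (C1) and 73 (C2) in viscous gel. The C1 libraries had the lowest ratios in both gels, where Timp2 was highest and Mmp14 lowest, and the other 6 overlapped between gels.

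**Figure D4:**
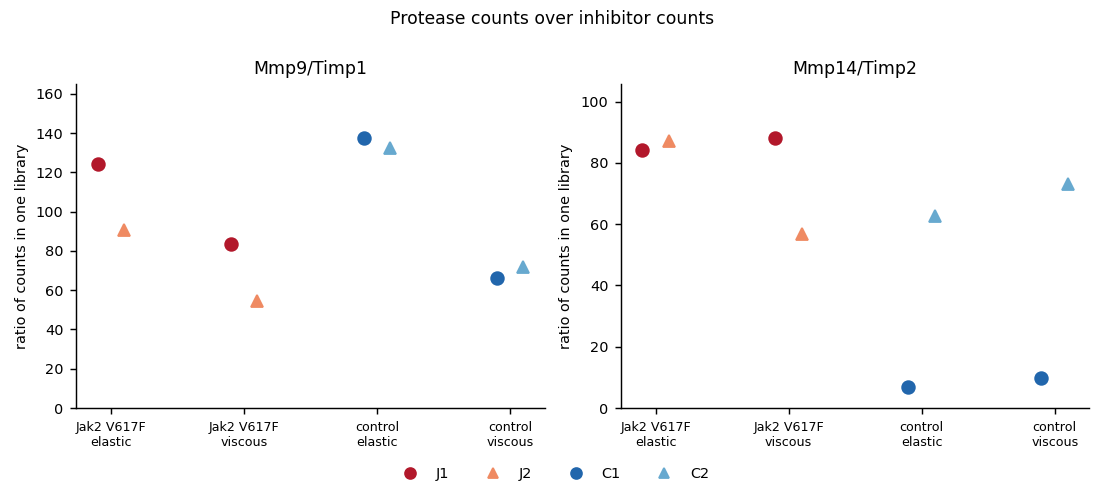
Counts of a protease gene over counts of an inhibitor gene within each library (vertical axes from 0), by group. At left, Mmp9 over Timp1 is 90.7 to 137 in the 4 elastic libraries and 54.3 to 83.7 in the 4 viscous ones; at right, Mmp14 over Timp2 is 6.90 and 9.94 in C1 and 56.8 to 88 elsewhere.

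Likeness of pattern was measured as Pearson's r of log2 CPM over the 8 libraries, which share title numbers and the C1 shift, against 11742 other genes with a mean of at least 50 counts. For 0 of the 10 members was another member among the 2 most alike genes, whose r ran from 0.953 to 0.998 and whose IDs carry no names here. The members nearest to each other were Mmp13 and Mmp19 (r = 0.91), which ranked 37 on the list of Mmp13 and 73 on that of Mmp19. Next came Mmp12 and Ctsk (r = 0.87), at rank 91 and 105. Of the 45 pairs of members, 7 had an r of 0.8 or more in size. The other 5 were Mmp8 with Mmp9 (r = −0.85), Mmp8 with Timp1 (r = −0.84), Mmp14 with Timp2 (r = −0.81), Mmp19 with Timp2 (r = 0.81) and Mmp9 with Timp1 (r = 0.80). In the pairs with Timp2, the C1 libraries held the highest Timp2 values. The share of all gene pairs with an r of this size was not computed, so the 7 are not read as a trait of the members.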

How the data were processed

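The deposited values are whole, unnormalized counts for each Ensembl ID, held by 1 table of the series and, with equal values, by 8 files of single libraries. Salmon, DESeq2 and the build GRCm38 are named per the submitters' processing notes; their roles and versions, the summing to genes, any filter and the use of strand are not given in the sources used here. No ID had fewer than 10 counts in all. Salmon divides ambiguous reads by estimation, so counts of overlapping genes are uncertain. The RefSeq gene table (GRCm38.p6) holds 0 Ensembl IDs: symbols of the 10 members came with their IDs, positions were matched by symbol for all 10, and other gene lists and marker lists that had been drawn up were not used.

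From the counts, edgeR 4.0.16 (R 4.3.3) was run with filterByExpr (14785 genes; 15239 for sums), TMM scaling and a quasi-likelihood fit of 4 group means to all 8 libraries, which share 1 spread per gene. Genotype over both gels used counts summed per title number. Tests were two-sided, with calls at a Benjamini-Hochberg adjusted p under 0.05 over all genes tested. SEs were derived from the test statistic, and the prior count of log2 CPM was 2. Nothing says that libraries of a group came from separate animals, so the p-values speak to the spread of these libraries alone, and that spread may be technical. Replicates of a group all differed beyond counting error (chi-square over degrees of freedom, 19.1 to 262).

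Alternatives were DESeq2 1.42.0, limma-voom (limma 3.58.1), other scalings and filters, each library left out, fits without C1, fits blocked by title number, and fits of only the libraries compared. The fits were tested on simulated data. The members and lists were chosen with earlier results of these data known; the rule for named genes took all 10 members, and the protease to inhibitor ratios were added later. Figures used matplotlib 3.10.9.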

Additional observations from a re-analysis of the deposited data

How the results depend on the processing

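Over 113 alternative counts of genes called, 96 equalled the original 0, and members were called in 1 of them: with C2 left out of the genotype sums, so that C1 alone stood for control cells, 2664 genes and 4 members (Timp2, Mmp19, Mmp14 and Mmp13) passed, and without any other sum the count was 0. DESeq2 called 134 genes for the gel over both genotypes, 35 in Jak2 V617F cells, 35 in control cells, 2 for the difference of gel effects, 61 for genotype in viscous gel, 44 in elastic gel and 106 for summed counts. For the gel over both genotypes edgeR called 1 gene without a filter on low counts, 1 with at least 50 counts in 2 or more libraries and 2 without both C1 libraries. Within Jak2 V617F cells the gel comparison gave 1 when just those 4 libraries were fitted and 1 without both C1 libraries. Averaged over the 8 libraries, genotype gave 2. None of these genes was a member. The median of all genes shifted by no more than 0.022 (log2) with another scaling.

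With a replicate block on the title number, edgeR called 5 genes for the gel over both genotypes and limma-voom with a random block 2, and in control cells limma-voom called 1; none was a member. The number was not taken as a pairing, because the labels do not say what it marks. The main gel test thus treated libraries of 1 number as separate, whereas the summed genotype test did not. Same-numbered libraries deviated together in control cells (r = 0.53) but not in Jak2 V617F cells (r = −0.089). limma's estimate of the correlation within a number, over all genes, was 0.38. Genes at an unadjusted p under 0.05 went up to 1757 with the fixed block, beside 928 without it, and members to 4 (Mmp13 in addition), with adjusted p of 0.134 for Mmp19, 0.18 for Mmp9, 0.255 for Mmp13 and 0.276 for Timp3 by edgeR.

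Of 590 alternative log2 fold changes of members, 24 had the opposite sign; none of them passed a test. Both C1 libraries left out gave −0.12 for Mmp12 and −0.075 for Ctsk in the gel comparison over both genotypes, and 0.055 for Timp2 between genotypes in viscous gel. The Mmp9 difference of gel effects was 0.013 with limma-voom, 0.0042 with the fixed block and 0.012 with the random block. With 1 library left out, gel values over both genotypes ran from −0.17 to 0.64 for Ctsk, −0.14 to 0.53 for Mmp12 and −0.49 to 1.06 for Timp2. Mmp8 in control cells ran from −0.39 to 0.051, Timp2 between genotypes in viscous gel from −2.19 to 0.055, and the difference of gel effects from −1.35 to 0.063 for Mmp19 and −0.76 to 0.77 for Mmp9. With 1 sum left out, genotype values ran from −0.48 to 0.031 for Mmp12, −0.069 to 0.70 for Mmp14, −1.10 to 0.060 for Mmp19 and −0.46 to 0.14 for Mmp8. For a library left alone in its group, the spread of the other groups was assumed. The cause of these changes was not tested.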
